A study of Arabidopsis thaliana with 6 samples.

Results

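Salicylate is the hormone that turns on plant defence against pathogens that feed on living tissue. It is made largely through isochorismate synthase, its accumulation is promoted by EDS1 and PAD4, a pair of lipase-like immune regulators, and its receptors of the NPR family act on TGA and WRKY transcription factors to induce pathogenesis-related (PR) genes. Most PR proteins are secreted proteins that act on microbes, such as glucanases, chitinases and chitin-binding proteins, and some PR genes respond to jasmonate and ethylene rather than to salicylate.

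A set of 10 salicylate and PR defence genes was described here across 6 ATH1 arrays, which measure transcript levels with oligonucleotide probe sets. The genes were chosen by their known place in the pathway and with the genotype differences on these arrays already known. Those differences are therefore given as a description without a test. Of the 10 genes, 5 had a probe set named in the annotation used, out of 22746 probe sets in all. AT5G03350 and AT2G43620 were named by the platform annotation. PR1, PR4 and WRKY70 were named by probe set and locus pairs that the study lists for genes altered in its other translation mutants, so the naming itself favoured responsive genes. PR2 (AT3G57260), PR5 (AT1G75040), EDS1 (AT3G48090), PAD4 (AT3G52430) and ICS1 (AT1G74710) were not analysed here, and the set thus describes PR-type outputs and a single regulator, not the synthesis or EDS1 steps.

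The arrays held total RNA from the aerial part of Columbia seedlings aged 11 days, 3 of wild-type and 3 of the eif3k mutant. In the mutant, intron 6 of the eIF3k gene is interrupted by a T-DNA. This gene encodes a subunit of the translation initiation factor eIF3, and only this single insertion line was measured. Per the labels all plants grew at 22 °C on plates with 1% sucrose and 0.8% agar under days of 16 h of light, and were harvested 4 h into the light period. The methods of the study instead give continuous light for eif3k, which is not settled here. By array date, replicates 1 and 2 of both genotypes came first, and the third replicates (replicate 3) of both came later.

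The deposited log2 signals ran from a floor of 2.25 to 15.55, and each array had 25.5% to 26.8% of its probe sets at that floor, below which no difference can be seen. The eIF3k probe set itself had signals of 6.81, 6.62 and 7.52 in eif3k against 8.82, 9.18 and 8.89 in wild-type, so it was lower on every mutant array. The array of eif3k replicate 3 stood apart in the control probe set for 25S rRNA, with 8.13 against 12.04 to 12.87 on the other 5 arrays. Values without this array are given for the 5 genes and for most of the defence list genes that peaked on it. The leaf marker RCA, the activase of Rubisco, had signals between 14.88 and 15.06, and the root hair marker EXPA7 lay between 2.25 and 2.26. PYK10, a beta-glucosidase abundant in roots, was at 10.87, 11.44 and 11.61 in eif3k and 10.62, 10.40 and 11.42 in wild-type. The other root and leaf markers were not analysed here, and the part of root tissue in the results was not tested. In whole aerial tissue, fewer cells that express a gene and less of its RNA per cell cannot be told apart.

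All 5 genes had a higher mean signal in eif3k, with a median log2 difference of 1.28 against 0.00 over all probe sets. Of the 5, 4 were higher in all 3 same-numbered pairs, which held for 8.23% of all probe sets, and 4 had a mean at least 2-fold higher, which held for 0.519%. The arrays of both genotypes were fully separated for 1 of the 5, AT2G43620, which held in this direction for 2.71% of all probe sets. Without eif3k replicate 3 the median difference of the 5 genes was 1.67. The shares over all probe sets are background only, since the choice of genes had used the same contrast. They also include 8863 probe sets that stayed under a signal of 3 on every array, a class that held 0 of the 5 genes. In the limma fit of this contrast across all probe sets, 0 of 22746 (0.0%) passed an adjusted p under 0.05 with at least a 2-fold difference, and 694 had an unadjusted p under 0.05.

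PR1 (AT2G14610) encodes a small secreted protein with activity against oomycetes and is the usual marker of salicylate signalling. Its log2 signals were 5.23, 6.10 and 4.45 in eif3k and 4.56, 4.33 and 3.11 in wild-type, in the order of replicates 1 to 3. The highest signal was that of eif3k replicate 2, both genotypes were lowest on the later date, and the groups overlapped by 0.11, since eif3k replicate 3 lay just below wild-type replicate 1. The means were 5.26 ± 0.83 (SD, n = 3) and 4.00 ± 0.78 (SD, n = 3), a log2 difference of 1.26 with a standard error of 0.66, or 2.39-fold. The pair differences were 0.67, 1.77 and 1.34. The difference was 0.82 without wild-type replicate 3, 0.84 without eif3k replicate 2 and 1.67 without eif3k replicate 3.

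AT5G03350 encodes a legume lectin-like protein whose transcript is known to be induced by salicylate. Its signals were 6.88, 7.75 and 6.14 in eif3k and 5.61, 6.73 and 4.58 in wild-type. Within each genotype replicate 2 was highest and replicate 3 lowest, and the pair differences were close to each other at 1.27, 1.02 and 1.56. The groups overlapped by 0.59, because the replicates within a genotype spanned more than the genotypes differed. The means were 6.92 ± 0.81 (SD, n = 3) and 5.64 ± 1.08 (SD, n = 3), a log2 difference of 1.28 with a standard error of 0.78, or 2.43-fold. It was 0.75 without wild-type replicate 3, 0.87 when eif3k replicate 2 was dropped, 1.68 when eif3k replicate 3 was dropped and 1.83 without wild-type replicate 2.

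AT2G43620 encodes a protein of the chitinase family, enzymes that cut the chitin of fungal cell walls. Its signals were 4.88, 6.10 and 6.22 in eif3k and 3.74, 4.38 and 2.59 in wild-type. Every eif3k array lay above every wild-type array, by 0.50 at the nearest, and wild-type replicate 3 was the lowest at a signal close to the floor. The means were 5.73 ± 0.74 (SD, n = 3) and 3.57 ± 0.91 (SD, n = 3), a log2 difference of 2.16 with a standard error of 0.68, or 4.48-fold, the largest of the 5. The pair differences were 1.14, 1.72 and 3.63, so the later date contributed most. The difference was 1.92 without eif3k replicate 3 and 1.43 on the first date alone.

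PR4 (AT3G04720) encodes a hevein-like chitin-binding protein and is usually placed among the PR genes that answer to ethylene and jasmonate. Its signals were 5.75, 6.16 and 9.24 in eif3k and 4.43, 4.59 and 5.89 in wild-type. In contrast to PR1, both genotypes were highest on the later date, and eif3k replicate 3 stood far above the rest of its group. Wild-type replicate 3 exceeded eif3k replicate 1 by 0.14, so the groups overlapped. The means were 7.05 ± 1.91 (SD, n = 3) and 4.97 ± 0.80 (SD, n = 3), a log2 difference of 2.08 with a standard error of 1.19, or 4.23-fold. The pair differences were 1.32, 1.57 and 3.35, and the difference was 0.98 without eif3k replicate 3, the array with the low 25S rRNA control.

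WRKY70 (AT3G56400) encodes a transcription factor that promotes salicylate-responsive genes and restrains jasmonate-responsive ones. Its signals were 4.49, 5.57 and 4.92 in eif3k and 4.59, 4.66 and 4.34 in wild-type. Only eif3k replicate 2 stood clearly above the rest, and eif3k replicate 1 lay below its wild-type partner. The means were 4.99 ± 0.54 (SD, n = 3) and 4.53 ± 0.17 (SD, n = 3), a log2 difference of 0.46 with a standard error of 0.33, or 1.38-fold. The pair differences were -0.10, 0.91 and 0.58, and leaving out eif3k replicate 2 brought the difference to 0.17, whereas leaving out eif3k replicate 1 brought it to 0.71 and leaving out eif3k replicate 3 to 0.50. The regulator thus differed less between genotypes than the 4 output genes, on the log2 scale, although that contrast between genes was not tested.

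The standard errors above treat the arrays as unpaired. Taken over the 3 pair differences instead, the standard error was 0.16 for AT5G03350, 0.32 for PR1, 0.64 for PR4, 0.30 for WRKY70 and 0.75 for AT2G43620. Pairing thus narrowed the error most for AT5G03350, whose same-numbered arrays moved together, and did not narrow it for AT2G43620.

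**Figure D1:**
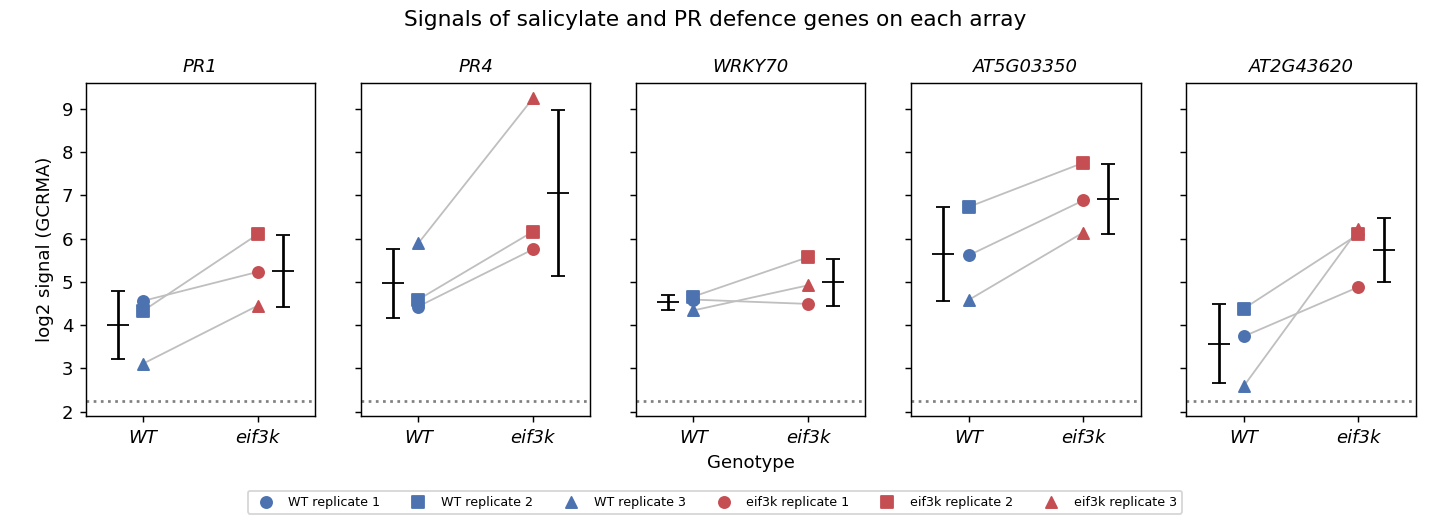
Log2 signal (GCRMA, vertical axis) of PR1, PR4, WRKY70, AT5G03350 and AT2G43620 on each wild-type (WT) and eif3k array, with grey lines joining arrays of the same replicate number, bars for the mean and SD of 3 arrays, and a dotted line at the floor of 2.25. Only AT2G43620 had all eif3k arrays above all wild-type arrays, and replicate 3 (triangles) was lowest for PR1 and AT5G03350 but highest for PR4.

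The replicates of one genotype differed more for these genes than for most others. The SD within genotypes, pooled over both, was 1.46 for PR4, 0.95 for AT5G03350, 0.83 for AT2G43620, 0.80 for PR1 and 0.40 for WRKY70, against a median of 0.24 over the 11373 brighter probe sets (mean signal above the median of all). PR4 was more variable than 99.1% of those probe sets, AT5G03350 than 97.4%, AT2G43620 than 96.5%, PR1 than 96.3% and WRKY70 than 79.2%. The genotype was not used in that measure beyond removing its means, but the genes were picked with large differences known, and no test was made of it. The brighter probe sets were not matched to the genes in signal. PR1, AT2G43620 and WRKY70, with means of 4.63, 4.65 and 4.76, lay near the cut of 4.09, and the part of signal level was not tested.

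The genes did not vary as a single block. After the mean of each genotype was removed, the deviations of PR1 and AT5G03350 over the 6 arrays had a Pearson r of 0.86, and those of PR1 and WRKY70 one of 0.62. PR4 ran the other way, with -0.79 against PR1 and -0.68 against AT5G03350, and its r with WRKY70 was -0.12. AT2G43620 had 0.68 with WRKY70, 0.60 with AT5G03350, 0.44 with PR1 and 0.11 with PR4. These correlations describe 6 arrays that share dates and a common normalization.

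The array date offered a comparison that had not been used to choose the genes, namely the later arrays against the first ones with genotype as a covariate. In limma 0 of the 5 genes passed an adjusted p under 0.05 with at least a 2-fold difference, against 76 of all 22746 probe sets (0.334%), and 2 of the 5 had an unadjusted p under 0.05, as did 3321 of all probe sets (14.6%). PR1 was lower on the later date by a log2 difference of -1.27 (limma moderated standard error 0.30, unadjusted p = 0.0187, limma adjusted p = 0.221). It was lower in both genotypes, by -1.34 in wild-type and -1.21 in eif3k. PR4 was higher on the later date by 2.33 (limma moderated standard error 0.54, unadjusted p = 0.0174, limma adjusted p = 0.215). The rise was 1.38 in wild-type and 3.29 in eif3k. When only those brighter probe sets were fitted, both passed, with a limma adjusted p of 0.0359 for PR1 and 0.0288 for PR4, but that fit called 470 of 11373 probe sets (4.13%). Over all the alternatives the adjusted p ran up to 0.484 for PR1 and 0.471 for PR4.

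AT5G03350 had a date difference of -1.38 (limma adjusted p = 0.363), alike in both genotypes at -1.59 in wild-type and -1.17 in eif3k. WRKY70 had -0.20 (limma adjusted p = 0.960). AT2G43620 had -0.37 (limma adjusted p = 0.993), which averaged a wild-type value of -1.47 and an eif3k value of 0.73. The plot of the date difference in each genotype shows PR1 and AT5G03350 low in both, PR4 high in both and AT2G43620 on opposite sides of 0.

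**Figure D2:**
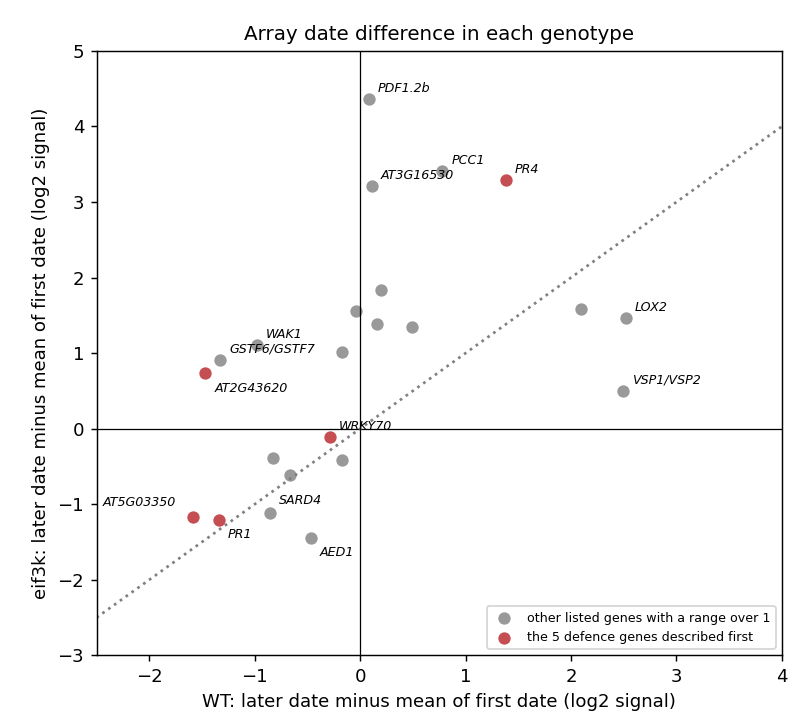
Difference in log2 signal between the later array and the mean of the first-date arrays, in wild-type (WT, horizontal axis) and eif3k (vertical axis), for the 5 genes (red) and the other listed genes whose signals ranged over more than 1 (grey), with a dotted line where both genotypes changed alike. PR1 (-1.34 and -1.21) and AT5G03350 (-1.59 and -1.17) lie at the lower left, PR4 (1.38 and 3.29) at the upper right and AT2G43620 (-1.47 and 0.73) at the upper left.

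Whether the genotype difference itself changed with the date was tested as the interaction of both. In limma 0 of the 5 genes passed with at least a 2-fold difference, against 112 of 22746 probe sets (0.492%), and 1 of the 5, PR4, had an unadjusted p under 0.05, as did 3158 of all probe sets (13.9%). The PR4 difference was larger on the later date by 1.91 (unadjusted p = 0.0218, limma adjusted p = 0.243), and that of AT2G43620 by 2.20 (limma adjusted p = 0.672). For PR1, WRKY70 and AT5G03350 the interaction was 0.12, 0.17 and 0.41, each with a limma adjusted p of 1.00. Of the 112 probe sets that passed, 79 had a mean signal not above the median and 89 barely varied on the first date (SD under 0.05 in both genotypes), and 0 passed when dim probe sets were left out, with 1412 at an unadjusted p under 0.05.

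The rest of the pathway was covered by lists of loci drawn up by function, in which 25 probe sets could be named. In the genotype contrast, limma called 0 of these 25. The 14 loci listed for salicylate receptors and their TGA and NIMIN partners had no probe set named in the annotation used and were not analysed here. Genes of these lists beyond those marked by role, such as SARD4, WRKY60, WAK1, GSTF6, AT3G16530, AT2G43590, AED1 and PDF1.2b, were chosen for mention after their values were seen.

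For synthesis, only the phenylalanine ammonia-lyase genes of the alternative route were named. PAL2 had a log2 difference of 0.12, PAL3 of 0.00 and PAL4 of -0.61, so none was higher by more than 2-fold and PAL4 was lower in all 3 pairs, by -0.56, -0.96 and -0.32. PAL2 was bright, and its eif3k mean of 9.60 ± 0.11 (SD, n = 3) lay within the spread of wild-type at 9.48 ± 0.52 (SD, n = 3).

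Among partners of EDS1 and PAD4 and early immune signalling genes, SAG101, the third member of the EDS1 family, had signals of 3.37, 3.47 and 3.37 in eif3k and 3.50, 3.37 and 2.92 in wild-type, which overlapped. The probe set shared by the helper immune receptors NRG1.1 and NRG1.2 had a log2 difference of 0.03. SARD4, an enzyme of pipecolic acid synthesis in systemic immunity, had signals of 5.78, 6.60 and 5.07 in eif3k and 5.31, 5.65 and 4.62 in wild-type. Its difference of 0.62 came with pair values of 0.47, 0.95 and 0.45, and its deviations followed those of PR1 with an r of 0.94.

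All 4 defence WRKY probe sets had a higher mean in eif3k. Of all 22746 probe sets, 8718 had a higher and 8696 a lower mean, and the rest were equal. The median log2 difference of the 4 was 0.40, and limma called 0 of 4. WRKY54 was the exception without eif3k replicate 3, where its difference was -0.16. WRKY60 had signals of 3.03, 4.53 and 5.16 in eif3k and 2.98, 2.63 and 2.96 in wild-type, which just separated, with a difference of 1.38 (limma unadjusted p = 0.0810). WRKY53 had 0.46 and WRKY6 0.34. Without eif3k replicate 3 the difference was 0.92 for WRKY60, 0.12 for WRKY53 and 0.48 for WRKY6. WRKY54, the closest relative of WRKY70, was at the floor of 2.25 on both first-date arrays of each genotype and at 3.60 and 2.74 on the later eif3k and wild-type arrays.

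Enzymes that modify salicylate could not be compared, since all 3 named probe sets stayed under a signal of 3. UGT76B1, which glucosylates salicylate and isoleucic acid, was at 2.25 on 5 arrays and 2.69 on eif3k replicate 2, and BSMT1, the methyltransferase, was at 2.25 throughout.

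The group of other PR-type and salicylate-responsive genes held most of the larger differences. Of its 12 probe sets, 3 stayed under a signal of 3, and 9 had a higher and 1 a lower mean in eif3k. Over all 22746 probe sets, 8718 had a higher and 8696 a lower mean. The median log2 difference was 0.95, and 7 were higher in all 3 pairs, which held for 8.23% of all probe sets. The median was 0.06 in the first pair, 1.21 in the second and 0.68 in the third. It fell to 0.58 without eif3k replicate 2 and to 0.64 without eif3k replicate 3. The arrays separated with eif3k higher for 4 of the 12, against 2.71% of all probe sets. Of the 12, 6 were named through the study's list of genes altered in other mutants, so the group is not a neutral sample. By limma 0 of the 12 passed, and 2 had an unadjusted p under 0.05, as did 694 of all 22746 probe sets. These 2 were WAK1 (0.0358) and the probe set shared by GSTF6 and GSTF7 (0.0400), both with a limma adjusted p of 1.00.

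WAK1, a wall-associated receptor kinase induced by salicylate, had signals of 4.39, 5.89 and 6.25 in eif3k and 4.01, 3.91 and 2.98 in wild-type, a 3.67-fold difference. GSTF6 and GSTF7, glutathione transferases of the stress response, shared signals of 8.51, 9.54 and 9.93 in eif3k and 8.08, 8.08 and 6.75 in wild-type, a 3.23-fold difference. Both resembled AT2G43620, with r of 0.89 and 0.95 between deviations, in that wild-type replicate 3 was the lowest array and eif3k replicate 3 the highest. Their pair differences widened in the same order. They ran from 0.38 to 1.98 and 3.27 for WAK1, and from 0.43 to 1.46 and 3.18 for GSTF6 and GSTF7. Without eif3k replicate 3 the log2 difference was 1.51 for WAK1 (1.88 with it) and 1.39 for GSTF6 and GSTF7 (1.69).

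PCC1, a small protein gene controlled by pathogens and the clock, had signals of 3.71, 5.39 and 7.96 in eif3k and 3.30, 2.57 and 3.71 in wild-type, so the groups met at 3.71. AT3G16530, another legume lectin gene, had 5.90, 6.95 and 9.63 in eif3k and 5.34, 4.87 and 5.22 in wild-type. LURP1, a gene required for defence against an oomycete, had 2.40, 2.68 and 4.10 against 2.32, 2.25 and 2.25. Without eif3k replicate 3 their log2 differences were 1.36 for PCC1 (2.49 with it), 1.28 for AT3G16530 (2.35) and 0.27 for LURP1 (0.79). All 3 were highest on eif3k replicate 3, as was PR4, and their deviations followed those of PR4 with r of 0.92, 0.91 and 0.91. That array weighs heavily in these r values.

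AED1, a secreted aspartyl protease of systemic immunity, was high on a single array, with 3.29, 6.06 and 3.22 in eif3k and 3.24, 3.23 and 2.77 in wild-type. AT2G43570, annotated as a chitinase, had a difference of 0.37 with pair values of -0.26, 0.96 and 0.42. AT2G43590 is a chitinase-family locus near AT2G43620 in the RefSeq gene order, with other loci between them. Its signals were 5.26, 5.89 and 7.16 in eif3k and 4.22, 4.12 and 6.26 in wild-type. It was higher in all 3 pairs, by 1.04, 1.77 and 0.90. Its log2 difference was 1.24, and 0.71 without eif3k replicate 3. Its signal on the later date was higher in both genotypes, by 2.09 in wild-type and 1.59 in eif3k. That date difference had a limma adjusted p of 0.116. AT2G43580 and AT2G43610, also near AT2G43620, were at 2.25 and 2.28 on every array. GRX480, the glutaredoxin that links salicylate to jasmonate signalling, did not exceed 2.41.

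**Figure D3:**
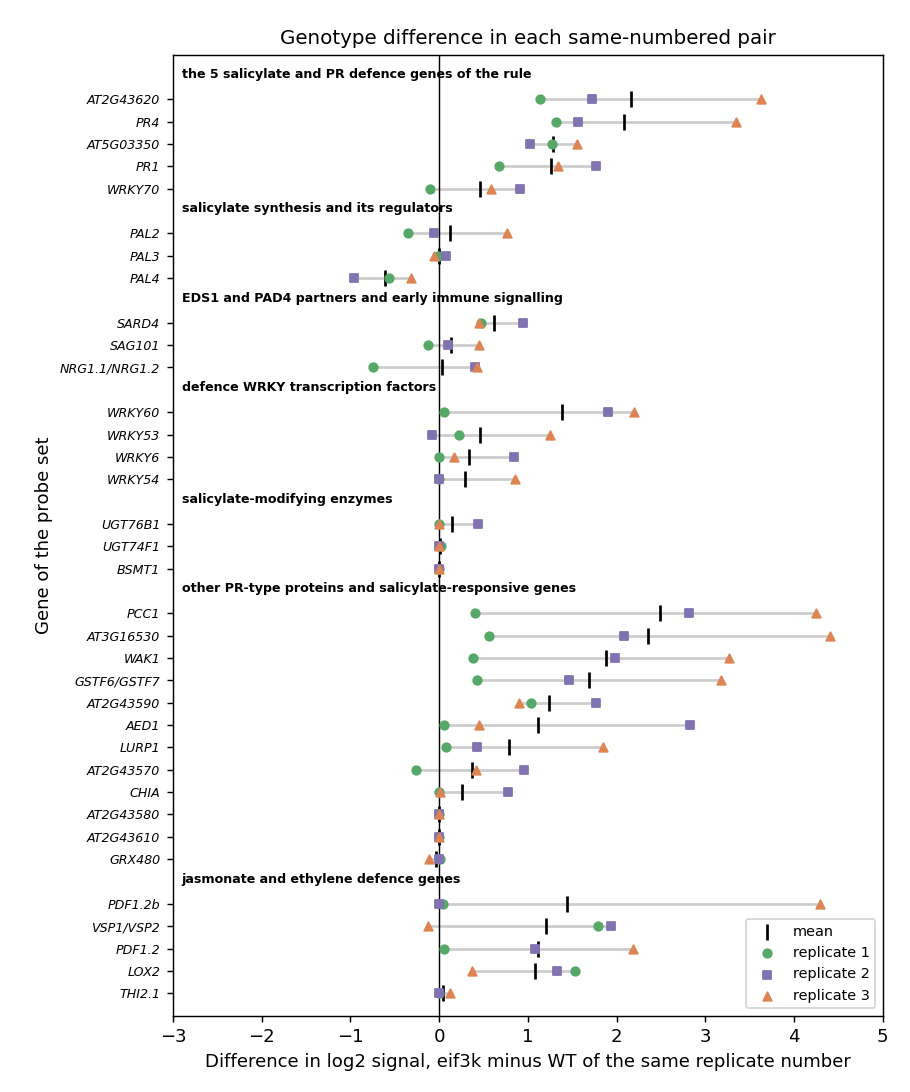
Difference in log2 signal, eif3k minus wild-type (WT) of the same replicate number (horizontal axis), for each named probe set of the 5 genes and of the pathway lists (rows), with the 3 pairs as symbols and their mean as a bar. The largest pair values, such as 4.41 for AT3G16530, 4.29 for PDF1.2b, 4.25 for PCC1, 3.63 for AT2G43620 and 3.35 for PR4, all came from replicate 3, while PAL4 lay below 0 in every pair.

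Genes of the jasmonate and ethylene branch were set beside PR4. LOX2, a lipoxygenase of jasmonate synthesis, had signals of 10.66, 10.84 and 12.21 in eif3k and 9.13, 9.51 and 11.84 in wild-type, and the defensin gene PDF1.2 had 2.44, 3.34 and 4.72 against 2.39, 2.26 and 2.53. Deviations followed those of PR4 with r of 0.80 for LOX2 and 0.91 for PDF1.2, and went against those of PR1, with -0.88 and -0.48. Both genes, like PR4, were highest on eif3k replicate 3, which weighs in these r values. The related PDF1.2b was at 2.25 to 2.36 on 5 arrays and at 6.65 on eif3k replicate 3. All 5 probe sets of this branch had a higher mean in eif3k, as had 8718 of all 22746, against 8696 with a lower mean. At least 2-fold higher were 4 of them, which held for 0.519% of all probe sets. The median log2 difference of the branch was 1.11, close to the 1.28 of the 5 salicylate and PR genes. Without eif3k replicate 3 that median was 0.50, with PDF1.2b at -0.01, PDF1.2 at 0.50 and LOX2 at 0.59. Only the probe set shared by VSP1 and VSP2, at 1.04, was then at least 2-fold higher. In the genotype contrast limma called 0 of the 5, with 0 at an unadjusted p under 0.05.

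Senescence markers were given because PR genes are also known to rise in ageing leaves. SAG21 had signals of 7.91, 9.32 and 8.81 in eif3k and 7.50, 7.50 and 6.52 in wild-type, which separated (log2 difference 1.51, limma unadjusted p = 0.0355, adjusted p = 1.00), and its deviations had an r of 0.90 with AT2G43620 and 0.64 with PR1. SAG101 overlapped between genotypes, as given above, and the 3 other listed markers, SAG12 among them, were not analysed here. The part of tissue age in the differences was not tested.

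The probe sets whose values over the 6 arrays were most like those of PR1, among 6347 brighter ones that name 1 gene, were AT2G25870 (r = 0.999), EARLI1 (0.998), AT4G12490 (0.988), AT2G32850 (0.978) and AT1G24530 (0.976). EARLI1 and AT4G12490, of a family of proline-rich lipid-transfer proteins, differed by 2.98 and 3.09 between genotypes on the log2 scale, more than PR1. AT2G25870, AT2G32850 and AT1G24530 differed by only 0.24, 0.25 and 0.62, since r does not measure the size of a change. For PR4 they were TPI (0.998), AT1G68585 (0.993), AT3G22240 (0.992), AT5G42320 (0.992) and AT5G19250 (0.991). In the same order their log2 differences between genotypes were 0.44, 0.28, 1.64, 0.44 and 0.34, all smaller than that of PR4. Of the 6347, 60 (0.945%) reached an r over 0.9 with PR1 and 245 (3.86%) with PR4, and these values describe only 6 arrays.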

How the data were processed

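Total RNA of 6 seedling samples was hybridised to ATH1 arrays. Per the labels, the deposited log2 signals were made by the authors with GCRMA (no version stated), and log base 2 was inferred from the values and this tool. Its background model uses probe sequence and its quantile step makes all arrays alike, so dim probe sets meet a common floor and a shift of all transcripts would be removed. For its polysome arrays the study chose RMA. The 64 Affymetrix control rows among 22810 were dropped. The platform annotation named 14016 probe sets and the study's supplementary probe set and locus pairs another 545, while 8185 are unnamed here. Where both named a probe set (891), 851 shared a locus. Symbols and gene order came from RefSeq.

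With limma 3.58.1 (R 4.3.3), contrasts were fitted by lmFit and eBayes, with 2-sided tests, on all 22746 probe sets with Benjamini-Hochberg adjustment, and called at an adjusted p under 0.05 with at least a 2-fold difference: genotype alone, array date with genotype, and their interaction, which assumes that the single later array of each genotype varies like the first ones. The fits were tested on simulated data with known differences, where the check was on the mean estimates. Their power to call genes is not given here. Probe sets at the floor hardly vary, limma offsets their near-zero variances, and the prior then had only 0.388 degrees of freedom in the genotype fit. The genes and the lists were chosen with earlier results of these data known. Named genes were the rule's genes, list genes marked by role, list genes that passed a test, and the 5 other probe sets most like PR1 and PR4, and the report says which were added later. Nothing says whether samples came from separate cultures beyond the term biological replicates, and p-values measure the spread between these arrays. The number of arrays limits the precision.

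The main fits were unpaired, with the replicate number as a block in an alternative. The labels tie replicate 3 of both genotypes to its own date, whereas only the shared number ties replicates 1 and 2 as pairs. Deviations from the genotype means correlated at 0.247, 0.378 and 0.542 between same-numbered arrays. Arrays 1 and 2 crossed gave 0.308 and 0.395, so these values do not separate a shared number from a shared date. Alternatives were scaling, a dim filter, another variance prior, blocks for replicate or date, the first date alone, no fold criterion, and leaving out each array, which was added for the medians of the gene lists after seeing the data.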

Additional observations from a re-analysis of the deposited data

Results flagged for a closer look

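The genotype difference was compared between the first and the later array date for 40 probe sets of the genes described and their lists. In 3 of them the interaction passed an adjusted p under 0.05 in limma, with no fold criterion, as it did in 834 of 22746 probe sets (3.67%): PDF1.2b, with a difference larger by 4.27 on the later date, WRKY54, with 0.86, and THI2.1, a thionin gene, with 0.12. All 3 were at or near the floor on every first-date array, where they hardly varied, and the last 2 did not meet the 2-fold criterion. In 2 others the difference had one sign in both first-date pairs and the opposite sign on the later date, which was not tested beyond the interaction fit: PAL2, with a change of 0.97 and pair values of -0.35, -0.06 and 0.77, and the probe set shared by VSP1 and VSP2, with -1.99 and pair values of 1.79, 1.94 and -0.12. Their interaction had a limma adjusted p of 0.234 and 0.519.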

How the results depend on the processing

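With the replicate number as a replicate block, 0 probe sets were called between genotypes. The median difference of the 5 genes was 1.28 as in the unblocked fit, which the balanced design fixes in advance. The block was fitted for the genotype contrast alone, so it says nothing on the date and interaction calls. The count of calls between genotypes was 0 under every alternative run. The median difference of the 5 genes ran from 0.82 (without wild-type replicate 3) to 1.83 (without wild-type replicate 2) when 1 array was left out, with 0.87 when eif3k replicate 2 was the one. It stayed between 1.22 and 1.29 under the other alternatives. Of these, only the scaling and the first date alone could move it. The blocks and the dim filter leave a mean difference unchanged in this balanced design. The date calls, 76 in all, became 160 with median centring (90 higher and 70 lower, against 51 and 25), 470 without dim probe sets, 4 with a trended robust prior and 156 without the fold criterion, and ran from 0 (without wild-type replicate 1) to 199 (without wild-type replicate 3) when 1 array was left out. The interaction calls, 112 in all, became 65 with median centring, 0 without dim probe sets and 834 without the fold criterion, and ran from 102 to 169 when 1 first-date array was left out; without replicate 3 of either genotype the interaction could not be fitted. The causes were not tested. With 1 array left out, the date difference of WRKY70 ran from -0.44 to 0.02 (without eif3k replicate 2) and that of AT2G43620 from -1.47 to 0.73 (without wild-type replicate 3), so both could change sign. Each genotype difference of the 5 genes kept its sign under every alternative run.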
